A study of Mus musculus with 16 samples.

Results

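The cells described here are the 200 cells of mouse intestinal crypts in which the ribosomal RNA transcript *Rn45s* took the largest share of the cell's own counts, out of 2597 cells in all. The 2 deposited count matrices were joined, the *Rn45s* count of each cell was divided by its total, and the 200 highest cells were taken, so these members were selected on a measured value. Single cells came from crypt-enriched small intestine of outbred mice at postnatal day 16. WT mice were wild-type, and neither genotype was treated. ROBO mice carried a Crainbow transgene recombined by Villin-Cre, which acts in the intestinal epithelium, so that recombined cells express a form of the Wnt agonist RSPO3 (RSPO3 itself or a PTPRK:RSPO3 fusion) together with a fluorescent barcode. The barcode was not read here, so recombined and unrecombined ROBO cells were not told apart. The labels give 8 samples per genotype, but the cell names carry only the genotype, so each genotype was 1 pooled sample and no test between groups was made. The WT matrix held 1348 cells with 2682127 unique molecular identifiers (UMIs, counted transcripts), and the ROBO matrix 1249 cells with 2428435. No cell name and no count profile was shared between them, and no mitochondrial gene is listed, so mitochondrial RNA could not be measured.

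*Rn45s* is the long precursor that RNA polymerase I makes from the ribosomal DNA repeats in the nucleolus and that is cut into the mature ribosomal RNAs. It is known for high output in growing and dividing cells, and the crypt is a tissue of fast division. The transcript is not polyadenylated like an mRNA, while the libraries were made with a kit that reads the 3′ ends of polyadenylated RNA. The gene entry spans the mature ribosomal RNAs as well, so a count does not say whether precursor or mature RNA was read. The markers given with these cells were *Rn45s*, the S phase helicase subunit *Mcm5*, the cytokinesis motor *Kif23*, the DNA topoisomerase *Top2a* and the chromosome condensation protein *Smc4*.

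*Rn45s* was a sparse transcript in most cells and abundant in few. Of all cells, 1437 had no *Rn45s* UMI, and the transcript made up 0.0726% of all UMIs. The 200 members held 2029 of its 3712 UMIs (54.7%), with 2 to 114 UMIs in a cell and a median of 7. The highest member, a WT cell, had 114 *Rn45s* UMIs among 1004 UMIs (11.4%), and the next cells down were WT cells with 66 of 690 (9.57%) and 52 of 591 (8.80%). The share was 1.16% at the 50th cell and 0.671% at the 100th. The last member had 4 UMIs of 1122 (0.357%), and the first cell left out had 7 of 1964 (0.356%). The members are thus the end of a continuous ranking and not a separate population. They range from 21 cells with at least 20 *Rn45s* UMIs, which together held 21.8% of the transcript, to 63 cells with 4 UMIs or fewer, which held 5.71%.

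**Figure D1:**
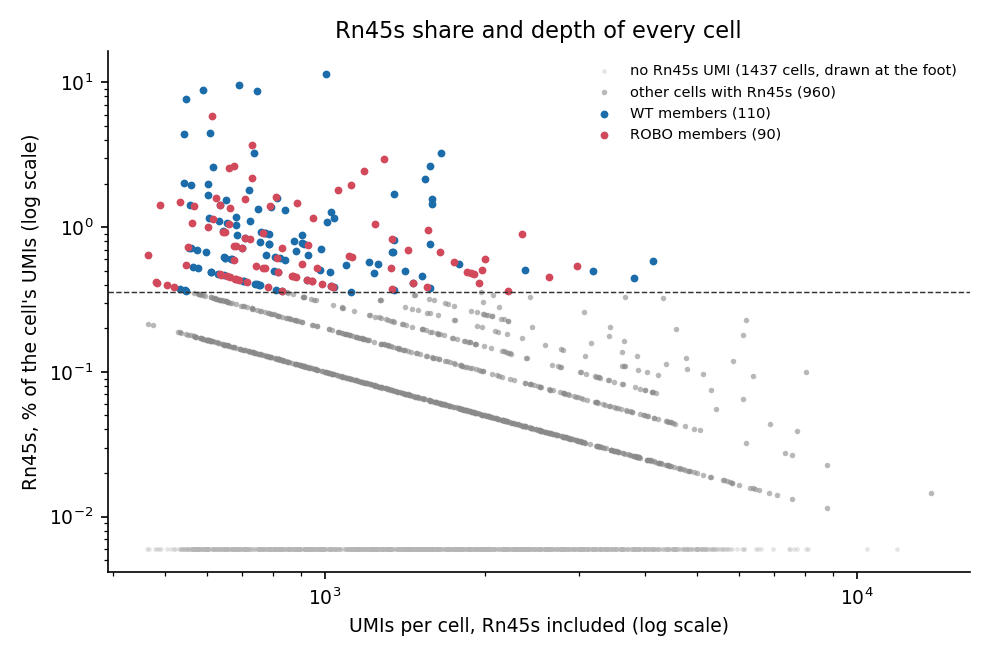
Each point is 1 cell, with its UMIs on the horizontal axis (log scale) and the percentage of them that were *Rn45s* on the vertical axis (log scale). The dashed line is the lowest member, 1437 cells without the transcript are drawn at the foot, and the members sit toward the left, at a median of 782.5 UMIs.

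The *Rn45s*-rich cells were shallow cells. Their median was 782.5 UMIs (quartiles 650.75 and 1069.25) against 1645 (979 and 2766) in the other 2397 cells, and their median of 546.5 genes compared with 1000. Both genotypes had this shape, with member medians of 773.5 UMIs in WT and 797.5 in ROBO against 1595 and 1706 in the other cells. A share also moves most easily where the total is low, and the part of depth in the selection was not tested. For this reason each member was also set beside the unused cell of its genotype nearest to it in UMIs other than *Rn45s*, with differences of at most 26 UMIs. These 200 depth-matched cells held 121 *Rn45s* UMIs and had a median of 547 genes. After each cell was thinned to 400 UMIs other than *Rn45s*, the median was 323.5 genes in members, 322.5 in depth-matched cells and 327 in all other cells. At equal depth the members thus held about as many genes as other cells.

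The division markers named with these cells were not higher in them. Levels are given as UMIs per 10000 UMIs other than *Rn45s*, summed over the cells of a group. *Top2a* had 35 UMIs in members (1.81 per 10000, 95% counting interval 1.26 to 2.52) against 2.07 in other cells. *Smc4* had 22 UMIs (1.14, interval 0.713 to 1.72) against 1.01. *Mcm5* had 12 UMIs (0.620, interval 0.321 to 1.08) against 1.06, and *Kif23* had 8 (0.414, interval 0.179 to 0.815) against 0.613. In depth-matched cells the counts were 28 for *Top2a*, 17 for *Smc4*, 30 for *Mcm5* and 12 for *Kif23*. Only *Mcm5* had a member interval that ended below its depth-matched level of 1.55, and the 4 genes together gave a log2 ratio of members to other cells of -0.26 (interval -0.60 to 0.07). By genotype, the *Top2a* level was 1.24 in WT members and 2.48 in ROBO members, beside 2.04 and 2.11 in the other cells. All intervals here cover counting error alone, since cells of 1 pooled sample are not replicates.

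Summed over all members, the S phase and G2M lists were not higher either. The S phase list (43 genes, including the polymerase clamp *Pcna* and the helicase subunit *Mcm6*) stood at 20.2 per 10000 in members, 23.0 in depth-matched cells and 24.7 in other cells, a log2 ratio to other cells of -0.29 (interval -0.44 to -0.14). The G2M list (54 genes, including *Mki67* and *Cdk1*) stood at 35.4, 39.0 and 42.3, a log2 ratio of -0.26 (interval -0.37 to -0.15). Against the depth-matched cells both intervals reached 0, with -0.19 (-0.39 to 0.01) for S phase and -0.14 (-0.29 to 0.01) for G2M. Of the 33 S phase genes with at least 100 UMIs over all cells, 7 were at least 2-fold lower in members and 0 higher. Of 45 G2M genes 8 were lower and 1, the centromere chaperone *Hjurp* (14 UMIs, log2 ratio 1.34), was higher. Among all 7457 genes measured this way, 10.7% were at least 2-fold lower and 4.64% at least 2-fold higher. *Pcna* had 9 UMIs in members, 23 in depth-matched cells and 681 in other cells (log2 ratio to other cells -1.57), while *Mcm6* had 37, 34 and 1034 (-0.14). The difference was not the same at every depth. In the shallowest of 4 bands of depth the G2M list stood at 40.0 per 10000 in 89 members (222 UMIs) and 32.9 in 309 other cells (642 UMIs), and the S phase list at 22.7 and 21.6. In the next band, with 51 members and 313 other cells, G2M stood at 27.3 and 37.5 and S phase at 22.1 and 18.6. In the third, with 52 members, both lists were lower in members, at 33.0 and 36.6 for G2M and 18.04 and 21.7 for S phase. The deepest band held 8 members.

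For scale, the 200 non-members with the highest G2M share had 149 G2M UMIs per 10000, with *Top2a* at 8.89 and *Kif23* at 2.79, and the 200 non-members with the highest S phase share had 84.3 S phase UMIs per 10000. When all cells were ranked, 11 of the top 200 by G2M share were members (5.5%, exact binomial interval 2.78 to 9.63%) and 14 of the top 200 by S phase share (7.00%, 3.88 to 11.5%), with 7.70% of all cells being members. Both intervals held that share. After thinning, the median member had 1 G2M UMI and 90% had 4 or fewer, the same as in depth-matched cells. The median of the 200 non-members with the highest G2M share was 6.

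The genes of ribosome production and of the ribosome itself differed little between members and other cells. Genes of RNA polymerase I and its factors stood at 12.1 per 10000 in members, 10.9 in depth-matched cells and 12.6 in other cells, and 0 of 15 passed 2-fold in either direction. The ribosome processing factors stood at 41.3, 44.8 and 46.4, with 1 of 51 higher and 5 lower, near or under the 4.64% and 10.7% of all genes. Among them the nucleolar proteins *Npm1* and *Ncl* had log2 ratios to other cells of -0.87 and -0.33. The cytosolic ribosomal proteins stood at 1412, 1370 and 1394, and 0 of 80 passed 2-fold. The log2 ratio of their sum was 0.019 (0.0016 to 0.037) to other cells and 0.044 (0.020 to 0.068) to depth-matched cells, small differences above 0 by counting error alone. Oxidative phosphorylation genes stood at 429, 381 and 428.

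A broad difference in the members lay in immediate-early genes, which cells switch on within minutes of a stimulus. The list of immediate-early and heat shock genes stood at 97.4 per 10000 in members, 62.0 in depth-matched cells and 49.7 in other cells. The log2 ratio was 0.97 (interval 0.90 to 1.04) to other cells and 0.65 (0.55 to 0.76) to depth-matched cells. In the shallowest of the 4 bands of depth the list stood at 107 in members and 81.1 in other cells. The values were 87.2 and 65.2 in the next band, 100 and 54.8 in the third and 84.9 and 44.7 in the deepest, so the gap was narrower in shallow cells. Of 18 genes, 17 were above 0 and 6 at least 2-fold higher (*Jun*, *Junb*, *Jund*, *Ier2*, *Ier3* and *Btg2*), beside 4.64% of all genes. Against depth-matched cells 2 of 17 genes were at least 2-fold higher, where 4.72% of 2860 genes were higher and 2.8% lower.

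*Jun*, a subunit of the transcription factor AP-1, had 349 UMIs in 119 members (18.04 per 10000) against 9.77 in depth-matched cells and 6.91 in other cells. The WT members stood at 21.02 and the ROBO members at 14.5, with the other cells of the genotypes at 7.12 and 6.68. *Fos*, its partner, had 346 UMIs in 116 members, at 15.8 in WT and 20.4 in ROBO members beside 9.50 and 10.7 in the other cells. *Junb* had 167 UMIs against 64 in depth-matched cells, and *Jund* had 37 against 12. The members of both genotypes were above the other cells of their genotype for *Jun*, *Fos* and *Jund*. The heat shock genes of the list were mixed. The stress-induced chaperones *Hspa1a* and *Hspa1b* had log2 ratios to other cells of 0.61 (0.16 to 1.03) and 0.67 (0.32 to 0.99), but to depth-matched cells -0.34 (-0.91 to 0.23) and 0.36 (-0.13 to 0.86). The chaperone *Hsp90aa1* had 44 UMIs in members and 55 in depth-matched cells, and *Hsph1* had 23 and 13. Of all cells ranked by this list's share, 43 of the top 200 were members (21.5%, interval 16.0 to 27.8%).

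**Figure D2:**
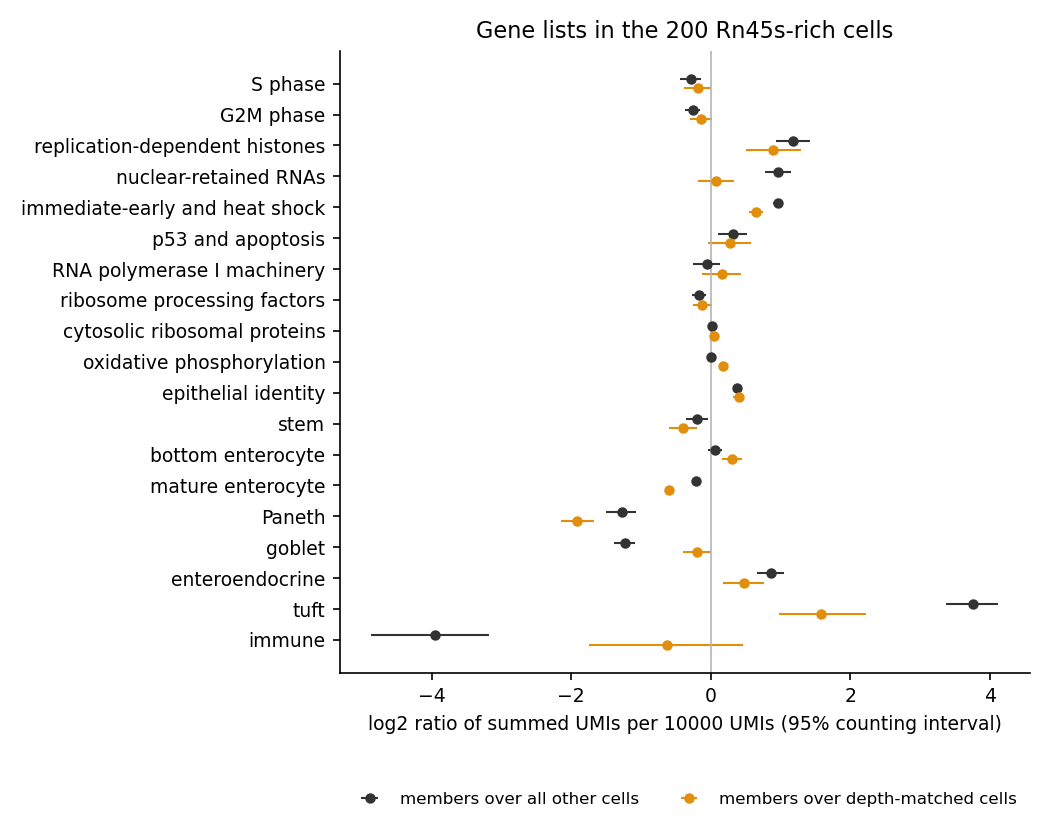
Points are log2 ratios of summed UMIs per 10000 for each gene list, in members over all other cells (dark) and over depth-matched cells (orange), and bars are 95% counting intervals. Immediate-early genes and histones lie to the right in both comparisons, nuclear-retained RNAs only against all other cells, and the S phase and G2M lists lie at or left of 0.

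Replication-dependent histone genes, whose mRNAs normally carry no poly(A) tail and end in a stem-loop, were higher in the members. Genes were put in this list by name, and the counts do not say whether tailed or untailed mRNA was read. The 68 genes of the list had 162 UMIs in members and 87 in depth-matched cells, at 8.38 and 4.50 per 10000, with 3.69 in other cells. The log2 ratio was 1.18 (0.94 to 1.42) to other cells and 0.90 (0.51 to 1.29) to depth-matched cells. *Hist1h2bc*, the one histone gene with at least 100 UMIs, had 59 UMIs in 42 members and 33 in depth-matched cells. The other genes of the list were sparser, such as the linker histone *Hist1h1d* with 7 UMIs in 5 members and 0 in depth-matched cells. The list of other ribosomal and small structural RNAs had 14 UMIs in members and 13 in depth-matched cells. It also held the protein-coding gene *Lars2*, with 2 of these UMIs in members and 7 in depth-matched cells. The gene of the list with most UMIs in members, the RNase P RNA *Rpph1*, had 12 UMIs in 8 members, 4 in depth-matched cells and 25 in all other cells. The histone ratio to other cells was 0.85 (0.44 to 1.25) in ROBO and 1.39 (1.09 to 1.68) in WT, with 56 and 106 UMIs.

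Summed as a list, nuclear-retained RNAs were higher in members than in other cells but not than in cells of like depth. The list stood at 13.3 per 10000 in members and 6.80 in other cells (log2 ratio 0.97, interval 0.78 to 1.15), but at 12.7 in depth-matched cells (0.07, interval -0.19 to 0.33). The genes of the list differed. *Malat1*, the abundant nuclear speckle RNA, had 134 UMIs in members and 94 in depth-matched cells (log2 ratio 0.51, interval 0.12 to 0.91). The paraspeckle RNA *Neat1* had 84 and 99 (-0.24, -0.67 to 0.20). Genes of p53 signalling and apoptosis stood at 10.03, 8.32 and 8.07, and the cell cycle inhibitor *Cdkn1a* had 51, 34 and 904 UMIs in members, depth-matched and other cells. The stress regulator *Ddit3* was the 1 of 11 genes of that list at least 2-fold higher (27, 16 and 254 UMIs, log2 ratio 1.43).

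Down the ranking by *Rn45s* share these lists changed by degrees. Immediate-early and heat shock genes stood at 106 per 10000 in the first 50 members, 121 in the next 50, 84.8 in the last 100, 64.3 in the 200 cells that followed the members and 52.9 in the 400 cells after those. In the remaining 360 cells with a *Rn45s* UMI they stood at 44.4, and in the cells without one at 49.9. The G2M list ran from 24.0 in the first 50 members through 42.1 and 36.9 to 42.3 in the following 200 cells and 44.4 in the 400 after those. It stood at 49.1 in the remaining cells with a *Rn45s* UMI, which were the deepest at a median of 2765.5 UMIs, and at 39.2 in cells without the transcript. Median depth moved along the same ranking, from 714 UMIs in the first 50 members to 837.5 in the last 100 and 1047 in the following 200 cells, and its part in the trend was not tested. Among cells with at least 1000 UMIs, where 60 members remained, the immediate-early list kept a log2 ratio of 1.03 (0.93 to 1.12), and the S phase list had -0.49 (-0.72 to -0.27).

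**Figure D3:**
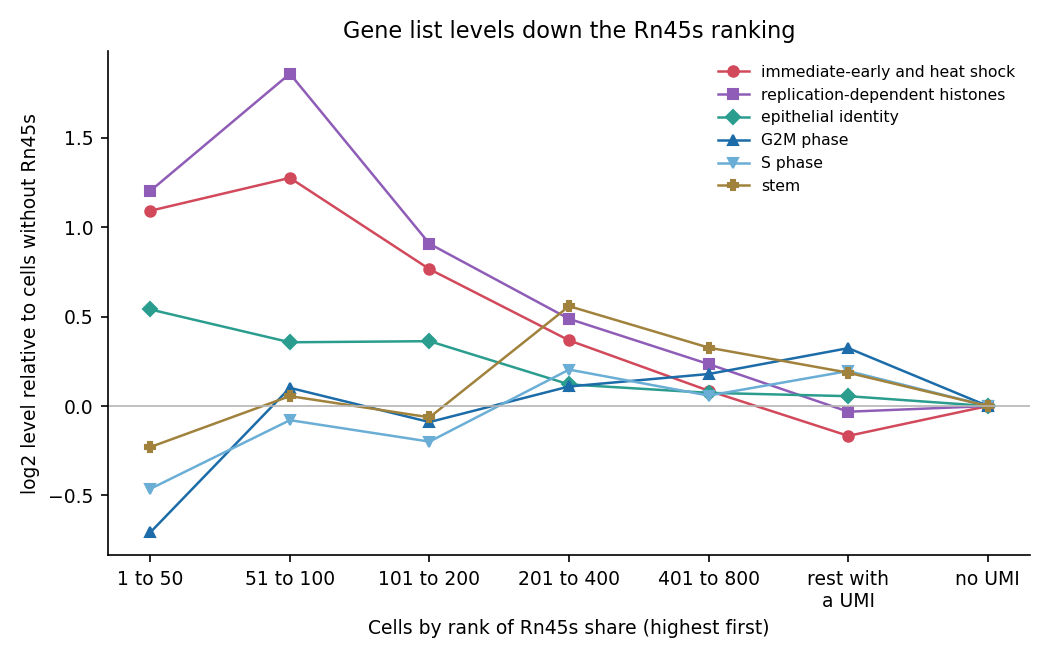
Lines give the log2 level of each gene list relative to the 1437 cells without *Rn45s*, for groups of cells in order of their *Rn45s* share, highest at the left. The immediate-early and histone lines are highest in the first 100 members and decline toward cells of low share, while the S phase and G2M lines are lowest in the first 50 members.

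The members were epithelial cells of several kinds. The epithelial identity list stood at 140 per 10000 in members against 106 in depth-matched cells, while the immune list had 13 UMIs in all members (0.672 per 10000 against 10.4 in other cells) the fibroblast list 0, where a count of 0 allows up to 3, and the list for endothelium, muscle and glia 4. The epithelial genes did not move together. The keratins *Krt18* (314 UMIs, log2 ratio to other cells 1.41), *Krt19* (695, 0.62) and *Krt8* (494, 0.41) were higher, and the tight junction genes *Cldn7* (0.79) and *Cldn3* (0.66) likewise. The adhesion protein *Epcam* was lower (262 UMIs, -0.53), and *Hnf4a*, a regulator of enterocyte genes, was at -0.19 (-0.51 to 0.12).

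Summed markers of Paneth, goblet and mature enterocyte cells were lower in the members than in other cells. The Paneth list, which holds antimicrobial defensins and lysozyme, stood at 9.56 per 10000 in members, 36.0 in depth-matched cells and 23.2 in other cells, with 6 of 10 genes at least 2-fold lower than in other cells and 6 of 8 lower than in depth-matched cells, where the shares of all genes were 10.7% and 2.8%. The sums rested on few cells, since 1 member, 9 depth-matched cells and 73 other cells had at least 10 Paneth UMIs. After thinning, 71.0% of members, 66.5% of depth-matched cells and 80.1% of other cells had no Paneth UMI. *Defa24* had 42 UMIs in members and 184 in depth-matched cells, and *Lyz1* had 27 and 147. The goblet list stood at 19.1, 21.9 and 44.9, with the mucin *Muc2* at 20 UMIs in members and 34 in depth-matched cells. Cells with at least 20 goblet UMIs were 2.5% of members, 3% of depth-matched cells and 3.5% of other cells. After thinning, 79.0%, 76.5% and 80.6% of these groups had no goblet UMI. Mature enterocyte genes stood at 305, 461 and 352, led by the apolipoprotein *Apoa4* (134, 259 and 177 per 10000), and 3 of 19 genes were at least 2-fold lower and 1 higher than in other cells, beside 10.7% and 4.64% of all genes. Against depth-matched cells 1 of 15 was lower and 1 higher, and the median gene had a log2 ratio of -0.07, so the lower sum rested largely on *Apoa4* (2595 and 5004 UMIs). *Anpep*, an enterocyte brush border peptidase, went the other way with 64 UMIs in members and 21 in depth-matched cells. After thinning, the median cell had 4 mature enterocyte UMIs in members, 3 in depth-matched cells and 2 in other cells. The 90th percentiles were 39, 65 and 59, so the lower sum does not describe the typical member. Stem cell genes stood at 17.7, 23.4 and 20.2. The log2 ratio of their sum was -0.19 (-0.35 to -0.03) to other cells and -0.40 (-0.60 to -0.19) to depth-matched cells. Of 15 stem genes 5 were at least 2-fold lower than in other cells and 0 higher. Against depth-matched cells 7 had enough UMIs, and 0 of them passed 2-fold in either direction. Genes of bottom enterocytes stood at 44.2, 35.8 and 42.3. *Lgr5*, the receptor that marks crypt base stem cells, had 5 UMIs in members, 14 in depth-matched cells and 322 in other cells. Of the 4 stem genes with most UMIs, *Slc12a2* and *Igfbp4* were lower than in other cells (log2 ratios -0.46 and -0.62). *Sox9* was higher (48 UMIs, 0.50, interval 0.05 to 0.92), and *Axin2* was at 0.18 (-0.22 to 0.56).

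A few members carried the genes of tuft cells, the rare chemosensory cells of the gut. The tuft list had 93 UMIs in members, 31 in depth-matched cells and 175 in the other 2397 cells, or 4.81, 1.60 and 0.356 per 10000. These UMIs were not spread evenly. Of 12 cells in the series with at least 5 tuft UMIs, 6 were members, 3 of each genotype, at *Rn45s* ranks 7, 16, 23, 38, 141 and 178. Among the 200 depth-matched cells 2 passed this threshold (1.00%, interval 0.121 to 3.57%), and the interval overlaps that of members (1.11 to 6.42%). When at least 3 different tuft genes were also asked for, 6 members (3.00%, interval 1.11 to 6.42%) and 4 other cells (0.167%, 0.0455 to 0.427%) were left. The cation channel *Trpm5*, which serves taste signalling in tuft cells, had 19 of its 20 member UMIs in those 6 cells. The threshold of 5 UMIs was chosen after these values were seen.

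Enteroendocrine genes came from single cells. The list had 237 UMIs in members, 171 of them in 1 ROBO cell at rank 150 that held 96 of 97 *Gcg* UMIs and 53 of 59 *Cck* UMIs (glucagon and cholecystokinin, gut hormones). A second ROBO cell held 29. The hormone *Sst* had 0 UMIs in members, where its level in other cells would give 22.8 and a count of 0 allows up to 3, and *Gip* had 4 where 55.3 would be given.

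Across all genes, 346 of 7457 were at least 2-fold higher in members than in other cells and 799 at least 2-fold lower. The highest are named among genes with a UMI in at least 20 members. This leaves out genes such as *Gcg* (log2 ratio 7.81) and *Cck* (4.53), which had most of their member UMIs in 1 cell. Apart from *Rn45s* itself, the highest of the remaining genes were *Chkb*, a choline kinase (30 UMIs in 26 members, log2 ratio 1.98, interval 1.37 to 2.54), *Ppp1r15a*, a phosphatase subunit of the stress response (34 UMIs, 1.86), the lipid kinase *Dgka* (1.85), *Als2cl* (1.81), the methionine aminopeptidase *Metap1d* (1.79), the chloride channel *Clcn2* (69 UMIs, 1.78), the phosphatase *Ptpn18* (1.73), *Jund* (1.72), the transporter *Abcc10* (1.70) and the oxysterol receptor *Nr1h3* (1.67). Of these 10, *Chkb*, *Ppp1r15a*, *Als2cl* and *Jund* had log2 ratios of 1.63 to 2.32 also against depth-matched cells, and *Abcc10* had 0.83 with an interval that held 0 (-0.05 to 1.75). The lowest, among genes that would have at least 20 UMIs at the level of other cells, were mostly genes of lymphocytes and of secretory cells. They were *Ccl5* (0 UMIs) and *Gzma* (3 UMIs, log2 ratio -4.49) of lymphocytes, *Sst* and *Gip* of enteroendocrine cells, *Zg16* (-3.47) and *Muc2* (-2.01) of goblet cells, and *AY761184* (-2.66), *Ctsl* (-2.97), *Clca4b* (-2.23) and *Gm15284* (-1.99). Against depth-matched cells *Ctsl* (4 and 41 UMIs) and *AY761184* (6 and 83) stayed lower, while *Zg16* did not (19 and 17).

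Genes with GC-rich transcripts tended to be higher in the members. The longest GENCODE M21 transcript was found by symbol for 7081 of the 7457 genes (94.96%). In 5 equal groups of genes by GC content, with medians from 41.6% to 57.6%, the median log2 ratio to other cells was -0.38, -0.25, -0.10, 0.06 and 0.32, and the share of genes at least 2-fold higher went from 1.13% to 12.1%. Against depth-matched cells the medians ran from -0.22 in the lowest group to 0.17 in the highest, and Spearman's rho across genes was 0.20 (7066 genes) against 0.36 for other cells (7081 genes, which share cells and depth and are not independent). Transcript length showed no such order (rho 0.02). Each cell's UMI-weighted GC content had a median of 51.5% in members, 50.8% in depth-matched cells and 50.7% in other cells. The immediate-early and heat shock list had a median GC content of 54.2%, the epithelial identity list 56.7%, the S phase list 47.3% and the G2M list 46.5%. To other cells, the nuclear-retained RNAs (44.9%) and the p53 and apoptosis genes (46.2%) had positive log2 ratios and the goblet genes (52.3%) a negative one. Against depth-matched cells the intervals of these lists held 0. The log2 ratios there were 0.07 (-0.19 to 0.33), 0.27 (-0.04 to 0.58) and -0.20 (-0.40 to 0.01). Other lists of low GC content had intervals without 0 there, in both directions. Bottom enterocyte genes (45.5%) had 0.30 (0.16 to 0.45) and mature enterocyte genes (47.8%) -0.60 (-0.64 to -0.55). The histone list had 0.90 (0.51 to 1.29), with GC content taken from *Hist1h2bc* alone (45.9%). The part of GC content in the ratios of the lists was not tested.

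**Figure D4:**
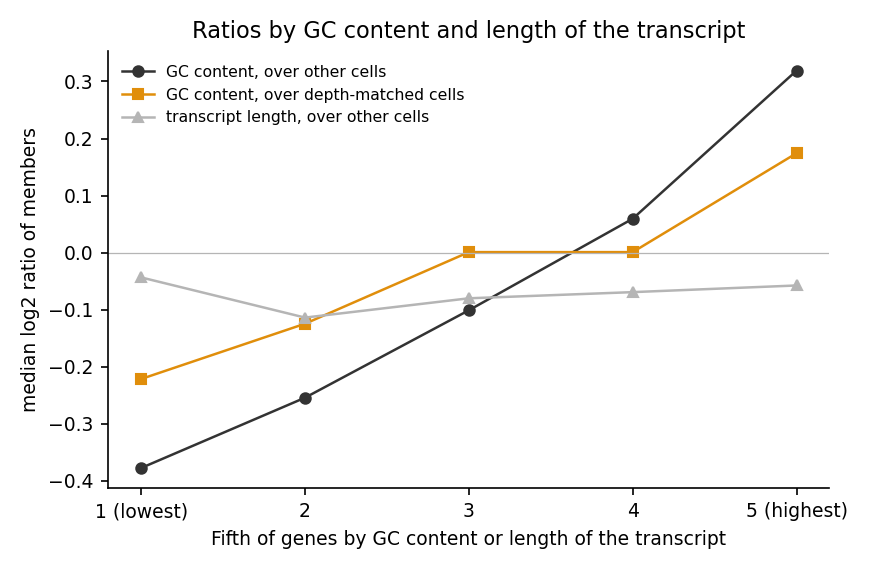
Points are median log2 ratios of members for 5 equal groups of genes by GC content (to other cells, dark, and to depth-matched cells, orange) or by length (grey) of the longest transcript. The GC lines climb from -0.38 to 0.32 and from -0.22 to 0.17, and the length line stays between -0.11 and -0.04.

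The members did not form a cluster of their own. All cells were clustered with *Rn45s* left out of the counts, and 10 of 12 clusters held members. The largest group was 54 members (27.0%, interval 20.98 to 33.7%) in a cluster of 324 cells whose leading genes were *Mcm5*, *Cdca8*, *Top2a*, *Erdr1* and *Prrc2a*. *Rn45s* itself ranked 1 among the genes of that cluster though it took no part in the clustering. Of its 873 UMIs there, 193 lay outside the members, which were picked by this transcript. Another 49 members lay in a cluster of 178 cells led by the immediate-early and stress genes *Atf3*, *Fosb*, *Plk3*, *Epha2* and *Hbegf*, where they were 27.5% of cells (21.1 to 34.7%). *Rn45s* ranked 15 there at 25.6 per 10000, nearly the 25.9 of the cluster led by *Mcm5*. A further 38 lay among 541 cells led by *Igfbp4*, *Cym*, *Slc12a2*, *Rnf43* and *Slc1a5*. These 3 clusters held 70.5% of members and 40.2% of all cells. The 45 cells led by *Ccl3*, *Ccl4* and *Gzma* held 0 members (up to 7.87% by the exact interval), and 177 cells led by *Myl7* held 0 (up to 2.06%).

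In the cluster led by *Mcm5*, the members were lower in division genes than their neighbours. Its 54 members had 43.1 G2M UMIs per 10000, while its other 270 cells had 68.0 (log2 ratio -0.66, interval -0.89 to -0.44), and for S phase the values were 32.1 and 39.5 (-0.30, -0.57 to -0.04). *Top2a* stood at 3.09 and 4.53 and *Mcm5* at 1.43 and 2.91 in the same cells. The members of this cluster were still at or above the level of all non-members, which was 42.3 for the G2M list, 24.7 for the S phase list, 2.07 for *Top2a* and 1.06 for *Mcm5*. The other 270 cells had *Rn45s* at 6.53 per 10000, above the 3.43 of all non-members. That was near the 6.25 (interval 5.19 to 7.47) of the depth-matched cells, which were taken without regard to cluster. Immediate-early and heat shock genes stood at 60.5 in its members and 35.4 in its other cells (0.77, 0.57 to 0.97). The cluster's median depth was 909.5 UMIs, with 737.5 in its members and 963.5 in its other cells. In the cluster led by *Atf3* the list stood at 192 in members and 164 in other cells (0.23, 0.12 to 0.33), histones at 13.5 and 3.96, and the G2M list at 38.1 and 28.9. In the cluster led by *Igfbp4* it stood at 58.8 and 42.9 (0.46, 0.23 to 0.67). Without the cluster led by *Atf3*, a choice made once its values were known, the list's log2 ratio over the remaining cells was 0.55 (0.46 to 0.65). Mature enterocyte genes differed in direction between these clusters. They stood at 212 in members and 109 in other cells of the cluster led by *Mcm5*. The values were 43.5 and 26.2 in the cluster led by *Igfbp4*, but 329 and 448 in that led by *Atf3*.

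**Figure D5:**
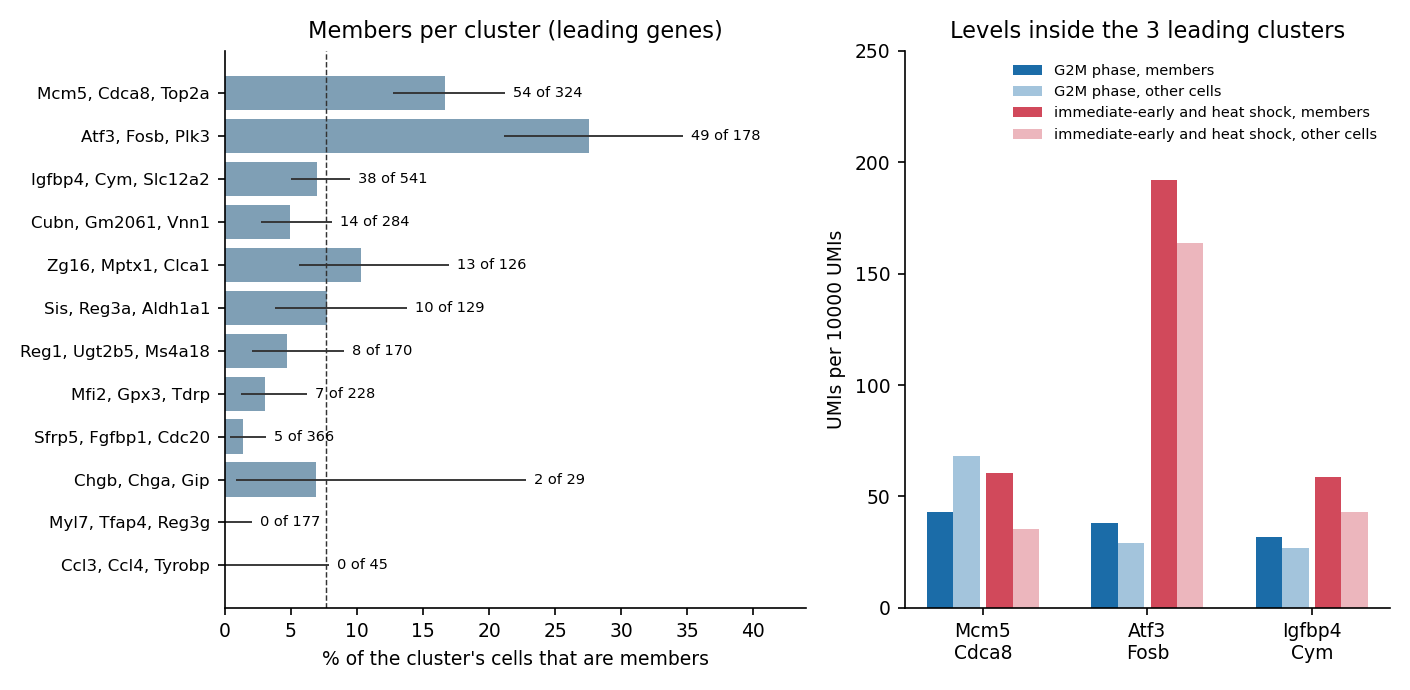
Left, bars give the percentage of each cluster's cells that are members, with exact 95% intervals, named by 3 leading genes, and the dashed line is the 7.70% of all cells. Right, bars give UMIs per 10000 of the G2M and the immediate-early and heat shock lists in members and other cells of the 3 clusters with most members; in the cluster led by *Mcm5* members are lower in the first and higher in the second.

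By genotype, 110 of 1348 WT cells (8.16%, exact interval 6.75 to 9.75%) and 90 of 1249 ROBO cells (7.21%, 5.83 to 8.78%) were members, a difference of -0.95 percentage points (-3.01 to 1.11). The cells of highest share leaned to WT, with 8 of the first 10 and 30 of the first 50. The WT members held 1271 *Rn45s* UMIs (121 per 10000) and the ROBO members 758 (85.4). The remaining cells stood at 3.89 (WT) and 2.91 (ROBO), which is -0.42 on the log2 scale for ROBO over WT (-0.56 to -0.28). Over all cells the ratio was -0.52 (-0.61 to -0.42), and without the 10 cells of highest share it was -0.27 (-0.37 to -0.17). With 1 pooled sample per genotype these values carry no replicate error, and genotype and pool cannot be told apart.

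Within the members, 3.81% of 656 genes with at least 50 UMIs passed 2-fold in either direction. The immediate-early and heat shock list stood at 97.5 per 10000 in WT and 97.2 in ROBO members, and the G2M list at 35.3 and 35.5. Other lists differed beyond counting error. The log2 ratio of ROBO to WT members was -0.27 (-0.33 to -0.21) for oxidative phosphorylation, -0.60 (-0.80 to -0.39) for bottom enterocyte genes, -0.92 (-1.26 to -0.60) for goblet genes, -0.61 (-1.07 to -0.17) for Paneth genes and -0.68 (-1.18 to -0.20) for histones. It was 0.41 (0.10 to 0.73) for stem cell genes and 0.07 (0.04 to 0.11) for cytosolic ribosomal proteins, and 3.39 for enteroendocrine genes, of which 1 ROBO cell held most UMIs. For goblet genes 1 WT member held 170 of the 255 UMIs of WT members, beside 114 UMIs in all ROBO members. The goblet ratio thus rested largely on 1 cell. The lowest genes in ROBO members were *Mt2*, a metallothionein (202 UMIs in WT, 35 in ROBO, log2 ratio -2.29), the goblet cell peptides *Spink4* (60 and 16) and *Tff3* (94 and 34), the mitochondrial import channel *Tomm40* (46 and 14, -1.48) and *X2010107E04Rik* (52 and 17). *Mt2* had -0.78 in the same direction in the other cells, and 1 member held 61 of the *Tff3* UMIs and 1 held 47 of the *Spink4* UMIs. The highest, apart from *Gcg* and *Cck* of the single cell described above, were *Erdr1* (18 and 49 UMIs, log2 ratio 1.68), the amine oxidase *Aoc1* (21 and 42, 1.24) and the heat shock gene *Hspa1b* (27 and 54, 1.24).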

How the data were processed

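Single cells of WT and ROBO mice were profiled with a droplet 3′ kit, and the authors made raw UMI counts per gene and cell in BaseSpace, deposited without normalization as 1 matrix per genotype. Submitters' notes name the build mm10 (GRCm38). The aligner, annotation and rule for calling cells are not given in the sources used here. Every count was a whole number, and totals ran from 463 to 13756 UMIs per cell. A further filter on cells was not applied, and doublets were neither called nor removed. The members and gene lists were chosen with earlier results of these data known.

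Cells were ranked by *Rn45s* UMIs over total UMIs (ties in file order, WT first) and the first 200 taken. UMIs were summed per group and scaled to 10000 UMIs other than *Rn45s*. Ratios have conditional exact 95% intervals, sums Poisson, shares Clopper-Pearson and differences of shares Newcombe intervals (scipy 1.17.1). A gene with at least 100 UMIs over all cells was called past 2-fold (against depth-matched cells also at least 30 UMIs over both groups). With 1 pooled sample per genotype no p-value was computed. On simulated sums for members against other cells (7457 genes, 200 changed) 96.3% of intervals held the true ratio, and 6.30% of unchanged genes passed 2-fold by counting error. The simulation drew group sums without spread between cells, so it checks the intervals for counting error alone. Clustering used Seurat 5.3.0 in R 4.3.3: log-normalization to 10000, S and G2M scores regressed out, 20 components of 2000 variable genes, resolution 0.8. Leading genes had the highest ratio of a cluster to the rest among genes with a UMI in at least 20% of its cells. Thinning drew 400 UMIs per cell without replacement.

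Genes were named by rule: the 5 markers, the 10 highest and 10 lowest in members (higher genes in at least 20 members, lower genes with at least 20 UMIs at the level of other cells), up to 4 genes of each list with most UMIs, 5 per direction between genotypes (at least 50 UMIs) and 5 leading genes of clusters with at least 10% of members. Other list genes were named after their values were seen. *Rn45s* has no entry in the annotation used, so no coordinates are given. The alternatives changed the comparison cells, the number and depth of members, weights, denominators, minimum counts and clustering.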

Additional observations from a re-analysis of the deposited data

Results flagged for a closer look

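In 4 gene lists the ratio of members to other cells pointed in opposite directions in the 2 genotypes with counting intervals that left out 0. With 1 pooled sample per genotype the difference was not tested. For enteroendocrine genes the log2 ratio was -1.37 in WT and 1.66 in ROBO, where 1 cell held 171 of the 213 UMIs of ROBO members. For bottom enterocyte genes it was 0.29 in WT and -0.28 in ROBO. For oxidative phosphorylation genes it was 0.083 in WT and -0.10 in ROBO, and for cytosolic ribosomal protein genes -0.041 in WT and 0.087 in ROBO.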

How the results depend on the processing

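No paired analysis was possible because the cell names carry no sample, so no replicate number could be used. Of 259 values under alternatives, 167 stayed within the counting interval (counts within 1.5 times), 85 moved and 7 changed sign. Genes at least 2-fold higher numbered 799 against depth-matched cells (135 with at least 30 UMIs over both), 861 with a minimum of 20 UMIs and 104 with 300, and genes lower 80 against depth-matched cells with at least 30 UMIs, 1764 with a minimum of 20 and 203 with 300; lower minimums admit more counting error. The S phase log2 ratio was -0.024 with 400 members, -0.49 in cells of at least 1000 UMIs and -0.12 with the same weight for each cell. The G2M ratio was -0.14 against depth-matched cells and -0.11 with 400 members. The histone ratio was 0.90 against depth-matched cells, 1.501 with 100 and 0.84 with 400 members, 0.85 in ROBO alone and 0.86 without the cluster led by *Atf3* and *Fosb*. The ratio of nuclear-retained RNAs was 0.070 against depth-matched cells, 0.77 with 400 members, 0.63 in cells of at least 1000 UMIs and 0.73 with the same weight. The immediate-early and heat shock ratio was 0.65 against depth-matched cells, 1.17 with 100 and 0.69 with 400 members, 0.85 with the same weight and 0.55 without the cluster led by *Atf3* and *Fosb*. The ROBO minus WT share was -3.61 points (-6.37 to -0.83) for 400 cells and -4.47 (-7.34 to -1.62) for 200 cells among those of at least 1000 UMIs. Signs changed for cytosolic ribosomal proteins in WT alone (-0.041), for processing factors (0.079) and stem genes (0.22) with 400 members, and for enteroendocrine genes with 100 (-2.18) and 400 (-0.18) members, the same weight (-0.12) and WT alone (-1.37). Apart from those alternatives whose construction shows it, the cause was not tested. The share of members in the cluster holding most of them (26.0 to 29.5%) and the ratio of median depths stayed close under the alternatives run, and the shares in other clusters were not recomputed. Leaving out the cluster, leaving out the 10 highest members and the minimum of 30 UMIs were added after seeing the data.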
